A study of Arabidopsis thaliana with 12 samples.

Results

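The transcriptome of unsprayed Arabidopsis thaliana seedlings was compared between RNAi-MARS, a line carrying an RNA interference construct against the long noncoding RNA MARS (AT5G00580), and the wild type Col-0. The members are the 3 RNAi-MARS libraries (A, B and C) and the 3 Col-0 libraries (A, B and C) labelled 0 h, 6 of the 12 libraries of the series. The other 6 are the same genotypes 4 h after a spray with 10 µM abscisic acid (ABA), and they entered here as libraries that share the estimate of the spread and in a side-by-side look at the genes of the main difference. All seedlings were 12 days old, were taken whole, and had grown on half-strength Murashige and Skoog medium with 1% sucrose in a cycle of 16 h light at 24 °C and 8 h dark at 21 °C. The labels give no promoter or insertion site for the construct, and do not say how many transformants the libraries hold or whether A, B and C were separate cultures. The p-values are thus measured against the spread within the 4 groups of the 12 libraries, and part of that spread may be technical. The study asked how lowering MARS alters the ABA response, and the unsprayed libraries are its starting point.

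MARS is transcribed within the marneral cluster of chromosome 5, a group of neighbouring genes that make a triterpene in the root. Marneral synthase, MRN1, makes the triterpene skeleton, and the cytochrome P450 enzymes CYP71A16 and CYP705A12 belong to the same cluster. An RNA interference construct yields small RNAs that guide Argonaute proteins to matching transcripts. ABA is the hormone of drought and seed dormancy: receptors of the PYR/PYL family bind it and inhibit clade A protein phosphatases, which releases kinases that switch on the response genes.

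Nearly all called differences lay in a stretch of chromosome 1 made of near-identical repeat units, so the sequences of its genes are given first. The coding part of the first exon of LpxC1, with the start codon in capitals, shows how alike the copies are: it stands 5 times on chromosome 1, all within the segment, and 4 of the 5 stand in LpxC1, LpxC3, LpxC4 and LpxC5. The fifth, at chr1:8781961-8782062, lies in no annotated RefSeq gene. The sequences are from the RefSeq copy of TAIR10.1, plus strand, and the LpxC1 stretch is chr1:8767581-8767682.
LpxC1: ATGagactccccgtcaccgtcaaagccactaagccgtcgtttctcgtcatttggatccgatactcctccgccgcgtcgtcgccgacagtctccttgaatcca
Over 1870 aligned positions the genes LpxC1, LpxC3, LpxC4 and LpxC5 had 0 differing positions. The 5 F-box genes of the same segment had 3 differing positions in 1527. The 60 bases with most differences hold a single one, in capitals, which sets AT1G25211 (chr1:8835696-8835755) apart from AT1G24800 (chr1:8770032-8770091) and the other 3.
AT1G24800: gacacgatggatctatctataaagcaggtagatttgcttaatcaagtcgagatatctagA
AT1G25211: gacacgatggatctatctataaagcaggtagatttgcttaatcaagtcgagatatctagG
A read from such copies matches several genes equally well, and the deposited counts of these genes were fractions of the same reads. The copies are therefore described by family and by their sum, not as separate observations.

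Total counts of the 6 libraries ranged from 19942905 to 36933131. Of 69383 features, 31871 had counts in at least 1 of the 6 libraries and 24176 in all 6. After the filter on low counts 22465 features were tested, among them 21784 nuclear genes and 574 transposable elements, and the rest were 75 features of the plastid and 32 of the mitochondrion. Protein-coding genes held 99.2% of the counts. Levels are given as CPM (counts scaled to library size with TMM factors) and as CPM per kb of exon where genes are compared with each other. Library C of RNAi-MARS stood apart in its organelle reads: plastid features held 0.104% of its counts and no more than 0.0254% in any of the other 5.

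The resting seedlings of both genotypes were dominated by the nuclear genes of photosynthesis. All 15 nuclear genes with the highest level per length belonged to the light-harvesting complexes, to Rubisco and its activase, or to photosystem II, and together they held 13.6% of the summed level of all nuclear genes. The top gene was CAB1 (LHCB1.3), a chlorophyll-binding antenna protein of photosystem II, at 12445 ± 2286 CPM per kb in Col-0 and 14126 ± 1440 in RNAi-MARS (SD, n = 3). RBCS1A, a small subunit of Rubisco, stood at 9448 ± 1383 and 9064 ± 675 CPM per kb, and rubisco activase, RCA, at 6334 ± 564 and 5595 ± 131. In all 3 the groups overlapped. The other 12 were LHB1B2, CAB2, LHCA4, LHCB3, CAB3, LHCA1, PSBR, RBCS3B, LHCB5, RBCS2B, PSBO1 and LHCB2.2. The log2 differences of the 15 genes ran from -0.18 to 0.18, and 0 were called. Counts of the near-identical CAB and RBCS copies were partly fractional in most libraries, so the share of each copy is uncertain.

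Other organs were present at much lower levels. The most abundant root marker, the beta-glucosidase PYK10, averaged 2415 CPM in the wild type and 2268 in the RNAi line, and the endodermal gene SCR 49.3 and 45.9. Of 17 root markers 16 were tested, and 0 were called. The summed level of the root markers was 1137 to 1624 CPM per kb in Col-0 and 1270 to 1397 in RNAi-MARS, so the Col-0 range enclosed the other. The stomatal lineage was represented by all 13 of its markers, among them FAMA, the factor that sets guard cell identity, at 16.5 and 17.61 CPM. Seed and flower markers fitted the label of young whole seedlings: 3 of 12, the storage protein genes CRU2, SESA1 and SESA3, had 0 counts in all 6 libraries, and only PI and SEP3 passed the filter. In bulk samples fewer cells of a type and less RNA per cell cannot be told apart.

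Among noncoding genes the highest level per length was that of AT4G13495, with 527 ± 97.0 CPM per kb in Col-0 and 538 ± 69.9 in RNAi-MARS, though it overlaps other annotated genes and its counts cannot be assigned to it alone. GUT15, the next, had 131 ± 1.82 and 122 ± 6.30. AT2G14878, AT1G69252 and AT1G10682 followed, at 83.3 to 103 CPM per kb in Col-0 and 86.6 to 96.9 in RNAi-MARS. Of the 5 noncoding genes, none was called, and their log2 differences ran from -0.24 to 0.08.

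MARS itself was low before ABA in every library. The raw counts were 133, 75 and 11 in libraries A, B and C of Col-0 and 5, 3 and 6 in RNAi-MARS, or 6.63, 2.60 and 0.344 CPM against 0.196, 0.156 and 0.167. The groups did not overlap, but Col-0 C lay nearer to RNAi-MARS than to Col-0 A. The log2 difference was -4.12 with a 95% interval from -6.46 to -1.79, and edgeR did not call it over all features (adjusted p = 0.996), while DESeq2 did (-4.21, adjusted p = 0.00628). An exact permutation test of MARS alone gave p = 0.1, two-sided, the smallest that 3 against 3 libraries allow.

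The enzyme genes of the marneral cluster varied among libraries of 1 genotype far more than between genotypes. MRN1 had 15.8, 6.83 and 0.719 CPM in Col-0 and 34.6, 7.0 and 6.71 in RNAi-MARS. CYP71A16 had 25.6, 17.7 and 4.66 against 29.3, 5.96 and 8.58, and CYP705A12 had 21.9, 13.4 and 2.03 against 16.0, 3.94 and 3.90. In each case the groups overlapped, with A the highest and C the lowest library of Col-0 and A the highest of RNAi-MARS. The log2 differences were 1.097 ± 1.05, -0.12 ± 0.69 and -0.63 ± 0.86 (SE), and their 95% intervals, such as -1.23 to 3.43 for MRN1, leave room for changes in either direction. Leaving out RNAi-MARS A turned the MRN1 difference to -0.14.

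The thalianol cluster, another root triterpene pathway of chromosome 5, was high in the same libraries. THAS1, thalianol synthase, had 114, 75.6 and 22.5 CPM in Col-0 and 87.3, 20.7 and 29.7 in RNAi-MARS. All 5 members lay below 0, with a median log2 difference of -0.62 that became -0.09 without Col-0 A, and 0 were called. The mean log2 level of both clusters was highest in Col-0 A and lowest in Col-0 C. The root markers, of which THAS1 is one, ran from 0.51 in Col-0 A to -0.63 in Col-0 C relative to their mean over the 6 libraries, with 0.36, -0.40 and -0.13 in RNAi-MARS. The part of root tissue in these values was not tested.

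**Figure D1:**
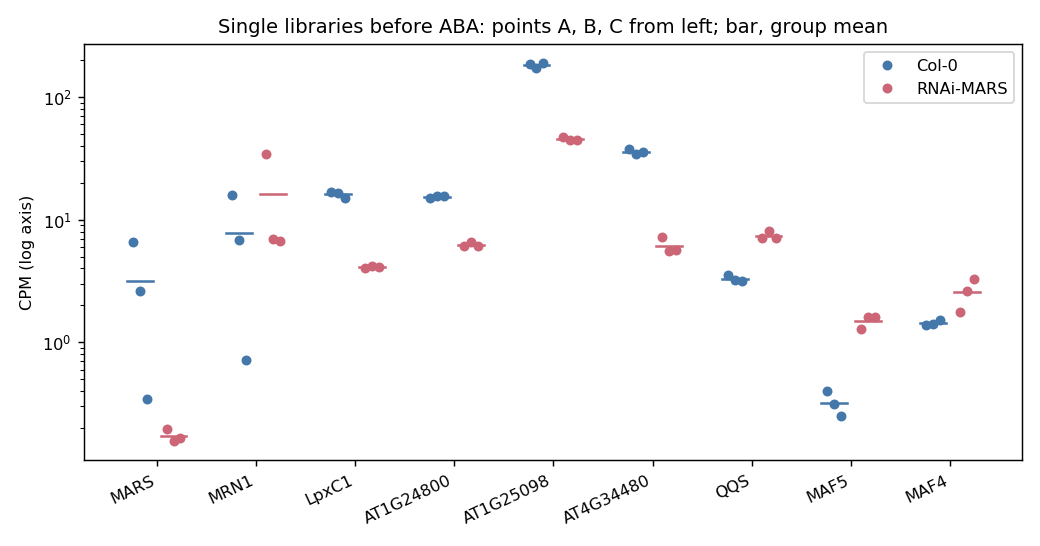
CPM (log axis) of 9 genes in the single libraries before ABA, Col-0 in blue and RNAi-MARS in red, with points A, B and C from left to right and a bar at the mean of 3 libraries. MARS and MRN1 spread widely within a genotype, while LpxC1, AT1G24800, AT1G25098, AT4G34480, QQS and MAF5 form tight groups that lie apart.

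Around MARS no neighbour was called. Within 100 kb, 33 other genes were tested and 0 passed, with a median log2 difference of -0.01 and a range from -0.63 (CYP705A12) to 1.097 (MRN1). All 3 RNAi-MARS libraries lay above all 3 of Col-0 for 2 of the 33 and below for 2. Over all tested features these shares were 5.17% above and 6.12% below, that is 1161 and 1375 features.

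Across all features, edgeR called 20 of 22465 at an adjusted p under 0.05, or 0.089%. Of these, 2 were higher in RNAi-MARS (0.0089% of features) and 18 lower (0.0801%). The other features differed little: the median log2 difference was 0.00, and 98% of the values lay between the percentiles at -1.05 and 0.79. For 18202 features (81.0%) the 95% interval lay wholly within a 2-fold difference in either direction, and for 13820 (61.5%) within 1.5-fold. This share depended on level. It was 18.0% below 1 CPM, 77.5% from 1 to 10 CPM, 96.2% from 10 to 100 CPM and 96.1% above that level. A fitted difference past 2-fold, called or not, was seen for 375 features (1.67%).

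**Figure D2:**
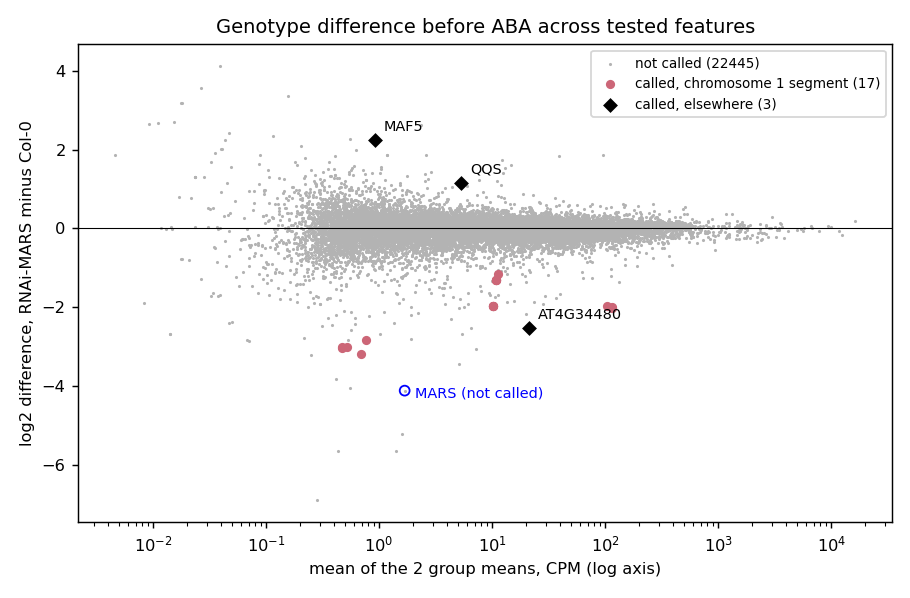
Log2 difference (RNAi-MARS minus Col-0) against the mean of the group means in CPM (log axis) for all 22465 tested features. The 17 called genes of the chromosome 1 segment (red) form layers near -1.3, -2.0 and -3.0, the 3 called genes elsewhere are black diamonds, and MARS is ringed in blue.

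The main difference was a single segment. Of the 20 called genes, 17 lay at chr1:8765614-8837007 (TAIR10.1), 71.4 kb with 31 annotated genes, of which 23 were tested. Summed over the segment the libraries of Col-0 had 701, 655 and 710 CPM and those of RNAi-MARS 194, 190 and 186. The groups lay far apart and each was tight. The log2 difference of the sum was -1.86 ± 0.10 (SE), edgeR adjusted p = 1.25e-05. The segment was set from genes called in the same libraries, so this p is no independent support for those calls. Counted as 1 feature, the segment left 3 calls in the comparison: itself, AT4G34480 and QQS.

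Copies of the repeat unit lie 14.4 or 22.5 kb from the next, and alignments of the segment with itself ran over 7.42 to 25.998 kb at 98.7% to 99.9% identity. The families of the unit did not fall by the same amount. The LpxC homologs encode UDP-3-O-acyl-N-acetylglucosamine deacetylases, enzymes that in bacteria commit precursors to lipid A. Summed over LpxC1, LpxC3, LpxC4 and LpxC5 they had 67.0, 66.3 and 60.4 CPM in Col-0 and 16.1, 16.8 and 16.5 in RNAi-MARS, so 25.5% of the Col-0 mean was left. Each of the 4 carried an equal part of these reads, with log2 differences of -1.97 (edgeR adjusted p = 3.12e-06).

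The 5 F-box genes, which encode proteins of the kind that choose targets for ubiquitin ligases, fell less. Their sum was 74.7, 77.7 and 78.8 CPM in Col-0 and 30.9, 33.4 and 31.4 in RNAi-MARS, which leaves 41.4%. Log2 differences were -1.31 to -1.15 and adjusted p 2.52e-05 to 9.32e-05 by edgeR. AT1G25211, the copy with the differing base shown above, was the least changed of the 5 at -1.15 ± 0.09. It overlaps AT1G05927 and ASB1, so its counts cannot be assigned to it alone. AT1G24800 and AT1G25150 overlap other genes of the segment.

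Most reads of the segment came from 3 genes at the same place in the unit: the noncoding genes AT1G25098 and AT1G25175 and the gene that RefSeq names LpxC2 (AT1G24880). Together they had 545, 497 and 557 CPM in Col-0 and 139, 132 and 130 in RNAi-MARS, or 25.03% of the Col-0 mean. LpxC2 does not hold the LpxC exon printed above, it overlaps AT1G24822 on the other strand, and its 168, 154 and 177 CPM in Col-0 are near those of the 2 noncoding genes. Its counts thus cannot be read as an LpxC level, and with no strand setting given in the sources used here they cannot be told from those of AT1G24822. The noncoding genes have the same limit: AT1G25098 overlaps AT1G25097 and AT1G25112, and AT1G25175 overlaps AT1G25180.

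The genes just upstream of the LpxC copies, 5 of them and mostly pseudogenes, were low in level and had the largest fall of the called families. Their sum was 5.98, 4.78 and 4.88 CPM in Col-0 and 0.744, 0.363 and 0.696 in RNAi-MARS, which leaves 11.5%. Log2 differences ran from -3.20 to -2.83, edgeR adjusted p from 0.00682 to 0.0106. Each of the 5 was called in 9 to 11 of 14 alternatives, with adjusted p up to 0.134. The uncharacterized genes AT1G24851 and AT1G25180 summed to 1.097, 1.11 and 0.688 CPM against 0.235, 0.207 and 0.278, and were not called at -1.92 (adjusted p = 0.252).

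One family of the same unit was not lower. The 4 glutamine amidotransferase genes AT1G24807, AT1G24909, AT1G25083 and AT1G25155, similar to a subunit of anthranilate synthase that feeds tryptophan synthesis, summed to 7.33, 7.45 and 7.76 CPM in Col-0 and 7.17, 7.67 and 7.07 in RNAi-MARS. The groups overlapped and 97.3% of the Col-0 mean was left, with log2 differences from -0.05 to -0.04 (adjusted p = 0.996). These 4 are 100% identical over 1895 bp. ASB1, the anthranilate synthase subunit gene at the border of the segment, had 24.0, 28.8 and 25.4 CPM against 26.6, 22.6 and 24.3. How reads that match ASB1 as well were divided is not given in the sources used here.

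The borders of the segment were set by the first and last called gene of a run with gaps of up to 100 kb. The lack of calls within 100 kb of the borders thus followed from that rule. The sizes of the flanking differences did not. Within 200 kb on either side 78 genes were tested, 0 were called, and the median log2 difference was 0.03. MAP70-2, the nearest gene on the lower side at 2.15 kb, differed by 0.02 ± 0.09. The lowest value of the flanks was -1.803 ± 0.68 for AT1G24580, whose 15.8 CPM in Col-0 A stood over 4.19 and 4.16 in B and C. Of 21707 windows of 10 neighbouring genes elsewhere in the genome, 0 had a median below -0.5. In 20 windows the median was above 0.5. All of these lay on chromosome 2 among nuclear copies of mitochondrial genes.

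**Figure D3:**
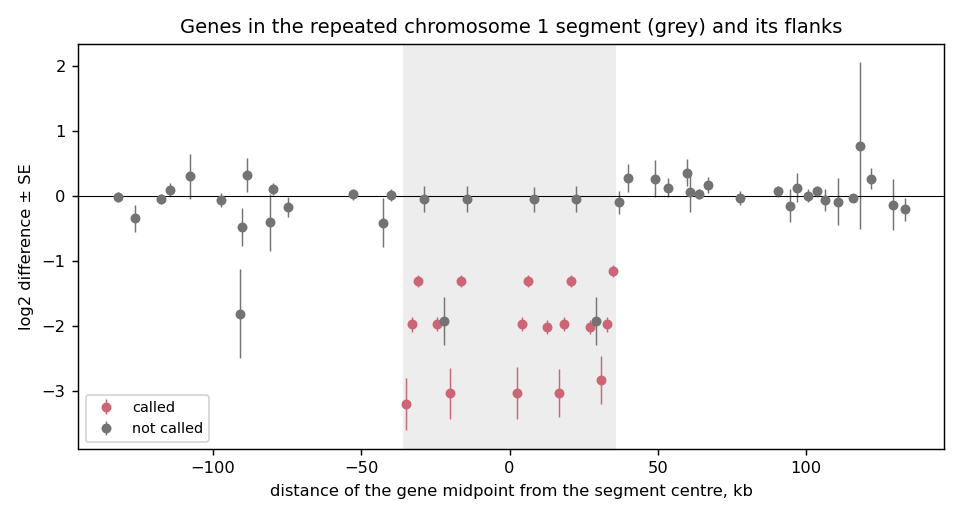
Log2 difference ± SE of genes by the distance of their midpoint from the centre of the repeated chromosome 1 segment, in kb, up to 100 kb beyond its borders. Within the grey segment called genes (red) repeat at 3 depths and the 4 glutamine amidotransferase genes stay near 0, as do most flanking genes.

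After ABA the same families differed between the genotypes, in other libraries. The LpxC homologs were 3.92-fold lower in RNAi-MARS before ABA and 3.19-fold lower after it, the F-box genes 2.42-fold and 2.79-fold, and the upstream genes 8.67-fold and 6.08-fold. LpxC2 and the 2 noncoding genes, which held most reads of the segment, were 4.00-fold lower before ABA and 2.75-fold lower after it. Whether these pairs of folds differ was not tested.

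Outside the segment 3 genes were called. AT4G34480, an O-glycosyl hydrolase of family 17 at chr4:16480887-16484231 on the minus strand, had 37.6, 34.6 and 35.3 CPM in Col-0 and 7.21, 5.55 and 5.65 in RNAi-MARS. The log2 difference was -2.54 ± 0.16 (95% interval -2.90 to -2.19), edgeR adjusted p = 1.23e-05. The groups lay well apart and the call held under all 15 alternative settings. Within 50 kb 25 other genes were tested and 0 were called. Of the 25, 3 lay lower in every RNAi-MARS library, against 6.12% of all features, among them the F-box gene AT4G34550, 18.3 kb away, with 3.19, 1.42 and 0.751 CPM against 0.470, 0.104 and 0.223. It was not called at -2.67 ± 0.75, but was called with the replicate block (-2.59, edgeR adjusted p = 0.0337). AGB1, the G protein beta subunit gene 1.27 kb from AT4G34480, was not lower, at 63.4, 61.7 and 69.9 CPM in Col-0 and 81.5, 71.5 and 74.3 in RNAi-MARS (adjusted p = 0.996).

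QQS (AT3G30720), a gene found only in Arabidopsis thaliana and known to affect starch content, was higher in RNAi-MARS. It had 3.54, 3.22 and 3.16 CPM in Col-0 and 7.09, 8.04 and 7.05 in RNAi-MARS, with no overlap, a log2 difference of 1.16 ± 0.14 and an edgeR adjusted p of 0.0045. The 11 other genes of starch metabolism tested were not called. Of these, 4 lay lower in all 3 RNAi-MARS libraries than in any of Col-0, against 6.12% of all features: GBSS1, the granule-bound starch synthase, had 480, 355 and 338 CPM against 287, 257 and 284 (-0.50 ± 0.27), and APL1, BAM1 and BAM3 differed by -0.12, -0.37 and -0.37.

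MAF5 (AT5G65080), a MADS-box gene of the FLC clade of flowering repressors, was the other higher gene. Its counts were low, at 8, 9 and 8 in Col-0 and 33, 31 and 58 in RNAi-MARS, or 0.399, 0.312 and 0.250 CPM against 1.29, 1.61 and 1.62. The log2 difference was 2.24 ± 0.30 and the edgeR adjusted p 0.0108. With the copies of the chromosome 1 segment counted as 1 feature, MAF5 was not called. The call was lost in 6 of 15 alternatives, among them limma-voom, the 6 libraries alone and the fits without Col-0 B, Col-0 C, RNAi-MARS B or RNAi-MARS C, with adjusted p up to 0.115 and differences that stayed between 2.09 and 2.41. MAF4 (AT5G65070), whose end lies 1.302 kb from MAF5, had 1.396, 1.42 and 1.53 CPM against 1.76, 2.64 and 3.26, with no overlap but no call (0.82 ± 0.24). The other members of the clade were level: FLC differed by 0.12 ± 0.35, FLM by 0.01 ± 0.08, MAF2 by 0.01 ± 0.08 and MAF3 by 0.17 ± 0.13. The floral integrator SOC1 had 55.0, 46.0 and 47.9 CPM in Col-0 and 47.7, 28.9 and 36.3 in RNAi-MARS (-0.40 ± 0.16, not called).

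Below the calls, 119 features of at least 1 CPM had an unadjusted p under 0.01, 97 lower and 22 higher in RNAi-MARS. The 10 with the largest decreases were MARS, PDF1.3, LEA7, AT4G34550, AT3G02480, AT4G14548, ABCF2, ABCG27, MBF1C and AT3G48240. PDF1.3, a defensin, had 7.63 CPM in Col-0 A and at most 0.520 in the other 5 libraries, and DESeq2 called it (-5.89, adjusted p = 0.0255). LEA7 and AT3G02480 belong to the late embryogenesis abundant proteins, which protect drying cells. LEA7 had 16.6, 11.1 and 0.438 CPM in Col-0 and 1.61, 0.259 and 0.613 in RNAi-MARS, so that the groups overlapped. Without Col-0 C, edgeR called LEA7 (adjusted p = 0.0155), AT3G02480 (0.0105) and MBF1C (0.00801). ABCG27, an ABC transporter, had 8.03, 5.92 and 4.85 CPM against 2.51, 1.81 and 2.28 (-1.49 ± 0.26, edgeR adjusted p = 0.148). It was called by DESeq2 (adjusted p = 0.000102) and by edgeR with the replicate block (-1.45, adjusted p = 0.0232). MBF1C, a heat-responsive coactivator, had 42.4, 27.4 and 18.0 CPM against 13.98, 12.7 and 13.98 (-1.10 ± 0.24). In LEA7, ABCG27 and MBF1C alike, Col-0 A was the highest library and Col-0 C the lowest of its group.

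The 10 with the largest increases were MAF4, AT3G12510 (a MADS-box gene), AT4G14120, AT5G66330, DRP5A, ESM1, PLE, AT5G20740, HB-2 and ZCF125, with log2 differences from 0.49 to 0.82. DRP5A, a dynamin-related protein of the dividing cell, had 3.94, 4.05 and 4.35 CPM in Col-0 and 6.46, 5.44 and 6.24 in RNAi-MARS. PLE, a microtubule-bundling protein of the cytokinetic phragmoplast, had 6.68, 6.03 and 8.26 against 9.16, 11.7 and 9.83. HB-2, a homeobox factor of the shade response, had 13.6, 17.36 and 14.2 against 21.8, 23.2 and 19.6. All 10 had groups that did not overlap, and none was called (edgeR adjusted p = 0.996).

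Single libraries weighed on this tail. Among the 611 features (2.72%) lower in RNAi-MARS at an unadjusted p under 0.05, the highest library was always one of Col-0. It was Col-0 A in 483, Col-0 B in 77 and Col-0 C in 51. RNAi-MARS B was the lowest in 360. Of the 362 higher ones (1.61%), Col-0 A was the lowest in 223 and RNAi-MARS B the highest in 198. The 973 features at that limit (4.33%) became 331 without Col-0 A, 475 without RNAi-MARS B and 1661 without Col-0 C. The calls moved less, from 20 to between 14 and 24.

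The spread within groups followed the same libraries. Over 15611 genes of at least 5 CPM the median pooled SD was 0.12 on the log2 scale. Of the 100 genes that varied most, Col-0 A was highest in 42 and Col-0 B in 29, whereas RNAi-MARS B was lowest in 37 and Col-0 C in 30. The first principal component of the 6 libraries held 45.5% of the variance and ran from Col-0 A (43.4), RNAi-MARS A (24.9) and Col-0 B (19.6) to Col-0 C (-19.5), RNAi-MARS C (-25.1) and RNAi-MARS B (-43.4). It did not separate the genotypes.

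The 15 most variable genes of at least 5 CPM included several of known responses. LTI65, a target of ABA and cold, had 23.3, 14.2 and 1.41 CPM in Col-0 and 3.25, 0.882 and 0.529 in RNAi-MARS. ADH1, SUS4 and the pyruvate decarboxylase gene AT4G33070, known from low oxygen, were high in Col-0 B alone: ADH1 had 36.4 CPM there, against 2.502 to 5.71 in the other 5 libraries. IPS1, a noncoding RNA of phosphate starvation, had 37.0, 54.3 and 6.97 CPM in Col-0 and 14.7, 5.44 and 1.73 in RNAi-MARS. MRN1 and CYP705A12 were also among the 15. The others were LEA7, AT5G04120, AT2G16367, PCC1, LTP3, AT2G08820, AT1G35710 and, in the organelle, the plastid feature ATCG00020, with 374 CPM in RNAi-MARS C and 17.3 to 56.9 in the others.

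Genes of ABA were read for their resting state. Of 20 ABA response markers 17 lay below 0 and 3 above, with a median log2 difference of -0.38, and 0 were called; over all tested features 50.6% lay above 0, with a median of 0.00. RAB18, a dehydrin, had 98.5, 52.6 and 18.7 CPM in Col-0 and 29.6, 9.54 and 10.2 in RNAi-MARS. P5CS1, which makes proline, had 719, 500 and 324 against 397, 201 and 207. In both the groups overlapped. RD26, a NAC factor, had 36.1, 25.7 and 19.95 CPM against 19.5, 17.37 and 19.3, and HB-12 59.5, 45.3 and 41.8 against 36.7, 37.3 and 38.96, without overlap. These were 2 of the 20 markers, against 6.12% of all features apart on the lower side. The median of the list was -0.16 without Col-0 A.

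The regulators of the pathway did not all lean the same way. Of the 9 clade A phosphatases all lay below 0, with a median of -0.45 (-0.22 without Col-0 A), and 0 were called. HAB1 had 152, 107 and 102 CPM in Col-0 and 89.5, 75.5 and 86.4 in RNAi-MARS (-0.52 ± 0.18). It was the member of the family whose groups did not overlap, 1 of 9, against 6.12% of all features on the lower side. The 9 tested PYR/PYL receptors had a median of 0.03 (-0.015 without Col-0 A), with PYL7 at -0.21 ± 0.09 and PYL5 at 0.57. Of the 9, 6 lay above 0 and 3 below. The 5 receptors not tested were below the count filter. Among kinases and transcription factors, OST1, the guard cell kinase, differed by -0.24 ± 0.10 and ABF2 by -0.40 ± 0.18. In ABA synthesis and breakdown, zeaxanthin epoxidase ABA1 had 808, 679 and 708 CPM against 576, 531 and 581 (-0.38 ± 0.13). The catabolic hydroxylases went both ways: CYP707A2 had 4.89, 3.40 and 2.06 against 1.84, 1.76 and 1.42, and CYP707A3 4.34, 5.89 and 4.78 against 5.99, 8.56 and 8.19. None of these was called. Groups stood apart on the lower side for 1 of 9 receptors and 1 of 8 kinases and factors. Among the 11 synthesis and breakdown genes tested, 3 stood apart on the lower side and 1 on the higher. Over all features these shares were 6.12% and 5.17%.

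**Figure D4:**
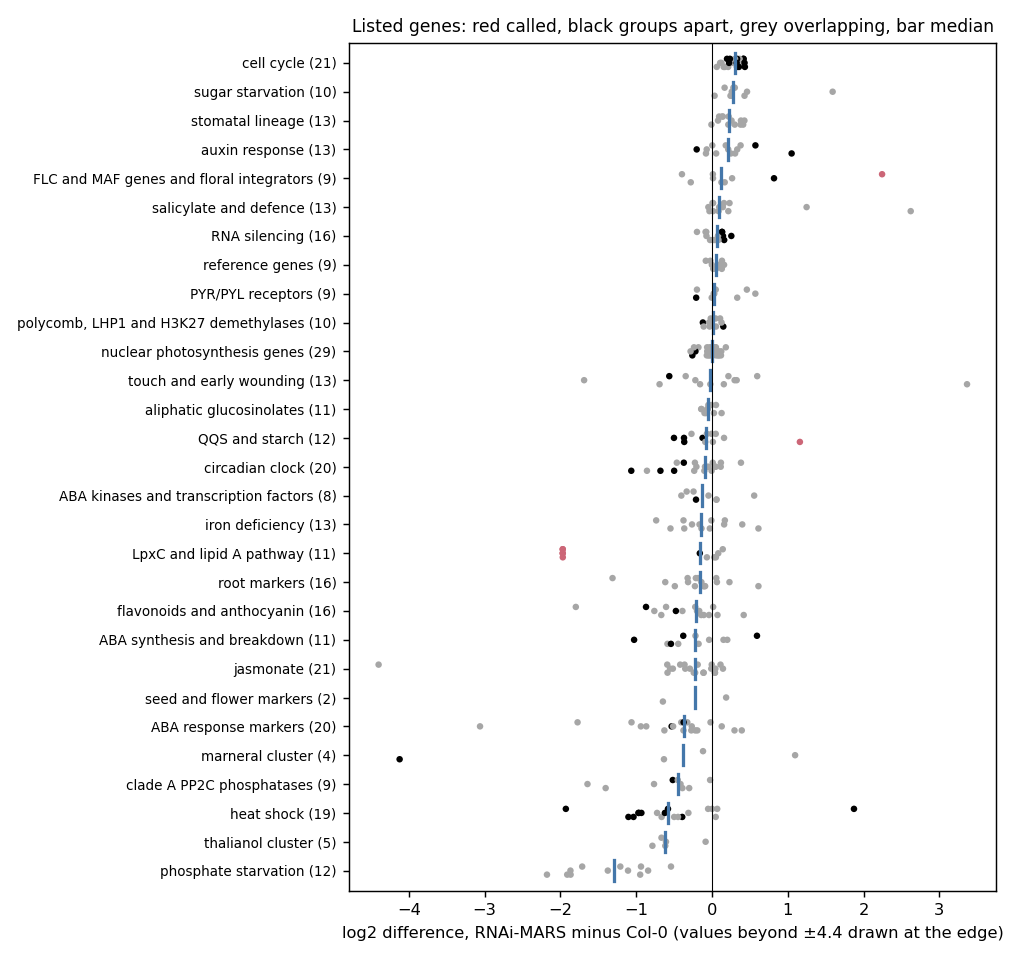
Log2 differences of the tested members of 29 gene lists, with the number tested in brackets, ordered by the list median (blue bar). Red members were called, black ones had groups that did not overlap, and grey ones overlapped. The called members are LpxC1, LpxC3, LpxC4, LpxC5, the gene that RefSeq names LpxC2, MAF5 and QQS.

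Cell division genes lay together above 0. All 21 did so, with a median log2 difference of 0.30 and a range from 0.06 to 0.43, and for 11 of 21 all RNAi-MARS libraries exceeded all Col-0 libraries, against 5.17% of all features. None was called. CYCB1;2, a mitotic cyclin, had 8.52, 8.94 and 11.2 CPM in Col-0 and 14.7, 12.0 and 11.7 in RNAi-MARS (0.42 ± 0.13). CDKB2;1, its kinase class, had 9.57, 11.6 and 10.7 against 14.8, 15.9 and 12.5 (0.43 ± 0.14). PCNA1, the sliding clamp of replication, had 11.9, 11.6 and 12.6 against 13.8, 17.63 and 14.9 (0.36 ± 0.15). The list median stayed between 0.25 and 0.35 under 15 alternatives, and members of 1 such set are not independent of each other. This list, like the others, was chosen with earlier results of these data known.

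Heat shock genes leaned the other way. Of 19, 15 lay below 0 and 4 above it, from -1.93 to 1.87, with a median of -0.58. For 9, all RNAi-MARS libraries lay below all Col-0 libraries, against 6.12% of all features. For 1 they all lay above, against 5.17% of all features. Besides MBF1C, HSP70 (AT3G12580) had 231, 128 and 98.0 CPM against 71.8, 75.1 and 75.7 (-1.04 ± 0.25), and HSFA2, a heat shock factor, 9.92, 4.26 and 4.16 against 1.61, 1.66 and 1.504 (-1.93 ± 0.78). The small heat shock protein gene HSP21 was near the limit of detection, at 0.0625 CPM or less in Col-0. edgeR called none of the 19, and DESeq2 called HSP70 and MBF1C.

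The clock list held 20 genes with a median of -0.10, and of -0.13 to -0.034 under the alternatives. PRR9, a morning repressor, had 40.3, 25.4 and 20.08 CPM in Col-0 and 15.5, 10.3 and 14.9 in RNAi-MARS (-1.07 ± 0.27), and RVE1 171, 110 and 136 against 104, 91.9 and 99.1 (-0.50 ± 0.14). PRR3 and LNK1 also had groups apart, at -0.68 ± 0.28 and -0.37 ± 0.16. In all, 4 of 20 lay lower in every RNAi-MARS library, against 6.12% of all features. edgeR called none, and DESeq2 called PRR9. The labels give no hour of harvest for either genotype.

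Phosphate starvation genes had the lowest list median, -1.29, with all 12 below 0, yet none had groups that did not overlap. SPX1, a phosphate sensor, had 189, 225 and 58.0 CPM in Col-0 and 105, 57.7 and 40.9 in RNAi-MARS. The high values were those of Col-0 A and B. Sugar starvation genes lay above 0 in all 10, with a median of 0.27 and no separated groups. The median was 0.094 without RNAi-MARS B and 0.53 without Col-0 C. DIN10 averaged 416 CPM in the wild type and 506 in the RNAi line. The jasmonate list (21 genes, median -0.22), the flavonoid list (16, -0.21) and the stomatal list (13, 0.22) had 0 called. Groups stood apart only for FLS1 and MYB12 of the flavonoid list, 2 of 16 on the lower side, against 6.12% of all features. The medians of these lists moved with single libraries. The jasmonate median was -0.43 without RNAi-MARS A and -0.0065 without RNAi-MARS B, the flavonoid median -0.94 without RNAi-MARS A and -0.075 without Col-0 A, and the stomatal median 0.10 without RNAi-MARS B and 0.39 without Col-0 C. In the jasmonate list the defensin PDF1.2a reached 9.02 CPM in Col-0 A and at most 0.235 in the other 5 libraries.

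Salicylate and defence genes turned on 1 library. PR1 had 0, 0.0346 and 1.81 CPM in Col-0 and 12.2, 0.0519 and 0 in RNAi-MARS, and PR2 had 0.947, 0.658 and 3.16 against 11.3, 0.104 and 0.139. The high value in both was RNAi-MARS A. NPR1, EDS1 and PAD4, upstream regulators of this defence, differed by 0.01, 0.16 and 0.02.

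Auxin response genes had a median of 0.21 in 13 genes, which was 0.057 without RNAi-MARS B and 0.12 without Col-0 A. IAA29 had 2.19, 2.98 and 3.38 CPM in Col-0 and 5.64, 7.88 and 4.46 in RNAi-MARS (1.05 ± 0.37), and GH3.3 4.94, 4.26 and 5.16 against 7.60, 8.45 and 5.40 (0.57 ± 0.24), without overlap and without a call. These were the 2 of 13 with groups apart on the higher side, against 5.17% of all features. On the lower side 1 of 13 had groups apart, against 6.12% of all features, and 3 of 13 lay below 0. In the touch and wounding list ERF109 rested on few reads, at most 0.0693 CPM in the wild type and 0.627 in the RNAi line. The iron list (13 genes) had a median of -0.14, with no groups apart, and of 0.16 without Col-0 C. It had the opposite sign in 3 of 15 alternatives.

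The silencing machinery through which an RNA interference construct works was expressed in both genotypes. Of 16 genes 0 were called, all 16 intervals lay within 2-fold, and the median was 0.07. AGO1, the main slicer, had 185, 196 and 195 CPM in Col-0 and 211, 252 and 224 in RNAi-MARS (0.26 ± 0.13). RDR6, SGS3, RDR2 and NRPD1 also lay higher in every RNAi-MARS library, by 0.13 to 0.16, so 5 of 16 had groups apart on the higher side, against 5.17% of all features. The Polycomb list, whose products write, read or remove the H3K27 mark of silent genes, had 10 genes with a median of 0.02 and all intervals within 2-fold. CLF, a methyltransferase of that mark, differed by 0.15 ± 0.08 and SWN by -0.12 ± 0.09.

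Other lists were flat. The 29 photosynthesis genes had a median of 0.00 and 28 intervals within 2-fold, with GAPA and PRK of the Calvin cycle at -0.22 and -0.26. The groups stood apart for these 2 of 29, against 6.12% of all features on the lower side. The 11 glucosinolate genes had a median of -0.05 and the 9 reference genes 0.05, all of them within 2-fold. In the lipid A list the genes beyond LpxC lay between -0.16 (KDTA) and 0.14, none called.

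**Figure D5:**
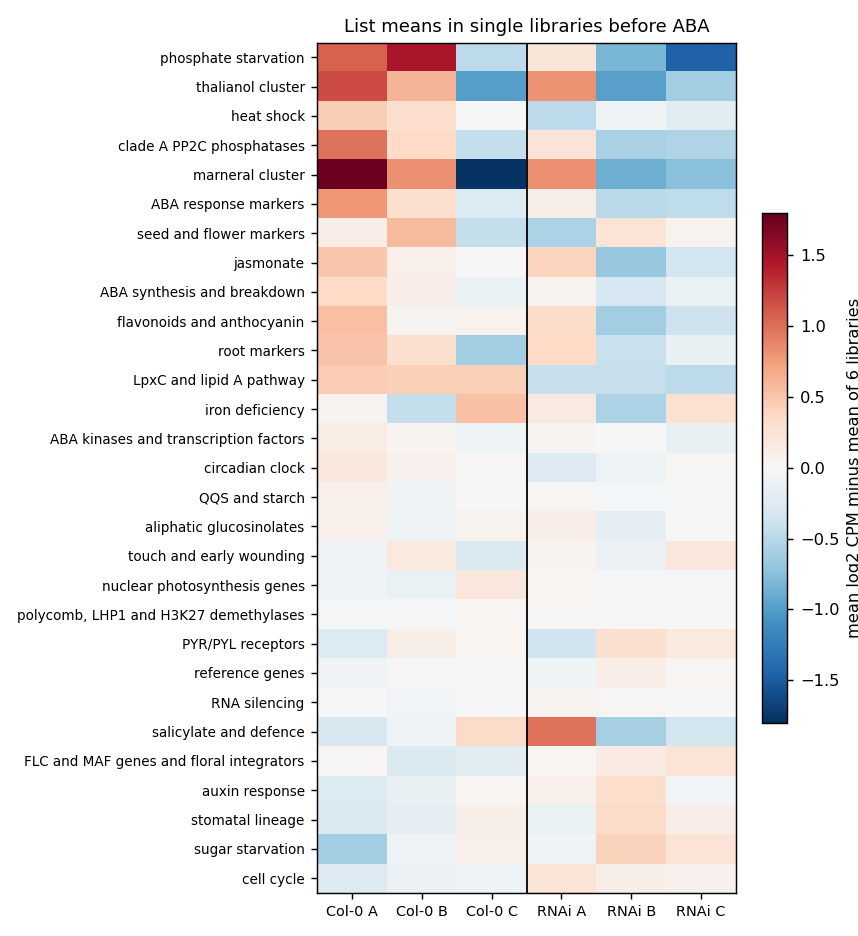
Mean log2 CPM of each gene list in the 6 libraries before ABA, relative to its mean over the 6 (colour scale, log2 units), in the order of the list medians. The phosphate, marneral and thalianol lists, with the strongest colours, vary within each genotype. The LpxC, heat shock and clock lists are lower in all 3 RNAi-MARS libraries, and the cell cycle and FLC lists higher. The margin is narrow for the clock and FLC lists.

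Of the 29 list means, 5 separated the genotypes without overlap and 24 did not. Of single features, 5.17% lay apart on the higher side and 6.12% on the lower. Of the 3 lower and 2 higher, the LpxC list rests on the segment and the FLC list on MAF5 and MAF4. The clock and FLC lists were apart by a narrow margin. The clock mean was 0.025 in Col-0 C and 0.017 in RNAi-MARS C. The FLC mean was 0.019 in Col-0 A and 0.035 in RNAi-MARS A. In 10 of the 29 lists A was the highest and C the lowest library of Col-0.

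Transposable elements and organelle features gave no call. Over the 574 tested elements the median of the log2 differences was 0.02, and 35 lay higher and 30 lower without overlap, shares near the 5.17% and 6.12% of all features. The 75 plastid features had a median of 0.78 and the 32 mitochondrial ones 0.64, while library C of RNAi-MARS held the most plastid reads, as given above, and 0.00448% of its counts on mitochondrial genes against at most 0.00235% in the other 5. The groups stood apart for 0 of the 75 plastid features and for 3 of the 32 mitochondrial ones, all 3 higher in RNAi-MARS, against 5.17% of all features.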

How the data were processed

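The members and gene lists were chosen with earlier results of these data known. For each library the authors deposited estimated counts per feature, not normalized; 5.48% to 7.02% of features in the 6 libraries held fractional values, so reads were divided between features. Tools named in the submitters' processing notes were STAR 2.7.2a, Trimmomatic 0.36 and, for counting, Subread 1.6.5 with featureCounts; the build was TAIR10. Trimming, strand and multi-mapping settings are not given in the sources used here. Coordinates and symbols are from RefSeq's TAIR10.1, since the files hold none. All 37898 nuclear gene IDs matched.

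Counts were rounded and tested in R 4.3.3 with edgeR 4.0.16 (quasi-likelihood F test, 1 coefficient per group over all 12 libraries, TMM, filterByExpr at a minimum count of 10, robust), 2-sided, with Benjamini-Hochberg adjustment over 22465 features; called means adjusted p under 0.05. SE is the log2 difference divided by the square root of F. "Groups apart" means that the 3 CPM values of each genotype do not overlap. DESeq2 1.42.0, limma 3.58.1 and the settings in the closing section were alternatives. The test was checked on simulated counts. List scores used a prior count of 2. Copies were aligned with BLAST 2.17.0 and MAFFT 7.526.

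Named were the marneral cluster; all called features; the 10 largest changes each way with unadjusted p under 0.01 and at least 1 CPM; the 15 nuclear and 5 noncoding genes with the highest level per length; the 15 genes of at least 5 CPM that varied most within groups; and from each list members with the smallest p or groups apart. Other genes (AGB1, ASB1, MAP70-2, AT1G24580 and those given for level or context) were chosen after their values were seen.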

Additional observations from a re-analysis of the deposited data

How the results depend on the processing

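The comparison called 15 to 30 features under the other normalizations, tools and filters, against 20: 30 by DESeq2 and 23 with the replicate block, each holding all 20, and 15 with the 6 libraries alone. Leaving out each library gave 14 to 24. Summing the segment to 1 feature gave 3. The summed segment was called in every alternative run, at -1.86 with the replicate block and -1.89 to -1.84 without single libraries. Its borders were those set from the calls of the main fit throughout. MARS was -4.09 with the replicate block and not called. DESeq2 called it at -4.21, and it ran from -4.68 to -3.04 without single libraries. The deviations of same-letter libraries of the genotypes correlated at 0.40 (A), 0.02 (B) and 0.15 (C). Not every library correlated best with its own letter. The labels do not say whether the letters pair the samples, and these values cannot settle it. With the 6 libraries alone MARS fell below the count filter and has no value.

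Several differences that were not called changed sign. Without single libraries MRN1 ran from -0.14 (without RNAi-MARS A) to 2.11, PR1 from -4.83 (without RNAi-MARS A) to 7.35, and PR2 (BGL2) from -3.64 (without RNAi-MARS A) to 2.27. PR2 was also -1.20 by limma-voom and -0.14 with the replicate block. CYP71A16 ran from -1.12 to 0.39 (without Col-0 A), and was 0.25 without RNAi-MARS B and 0.16 without RNAi-MARS C. CYP705A12 ran from -1.65 to 0.047 (without Col-0 A), SEP3 from -0.070 (without RNAi-MARS B) to 0.40. MYB29 ran from -0.32 to 0.030 (without Col-0 C), and was 0.022 without RNAi-MARS B. The cause was not tested. Of 2463 values of single genes under alternatives, 2416 kept direction and side of the threshold. Other scalings moved the median of all features by at most 0.02. Levels of the 20 genes named by level moved by less than the SD between replicates with DESeq2 size factors or upper quartile factors, both chosen after seeing the data. Below 1 CPM, 18.0% of intervals lay within 2-fold, so depth limits statements on low transcripts.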
